A study of Homo sapiens with 8 samples.

Results

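The DNA replication genes examined here are 44 listed human genes that load the replicative helicase onto DNA, fire it, copy both strands and supply the nucleotides. They were selected from the tables by symbol. All 44 were among the 27317 symbols of the deposited tables, and all 44 were among the 17268 genes kept for testing. The libraries were bulk RNA sequencing in 4 groups of 2, all from the human embryonic stem cell (ESC) line MEL1. The groups were cells given DMSO alone (the solvent) or TCDD at 2 nM in DMSO, each collected at D1 or at D2. D1 was directly before differentiation. D2 followed 2 days in a cardiac differentiation medium with the GSK3 inhibitor CHIR99021 at 5 µM. The labels place the exposure at the ESC stage, and its length is not given in the sources used here. All groups share this single cell line, and nothing states that the replicates were separate cultures, so the p-values measure only the spread between these libraries, which may be technical.

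Replication begins when the origin recognition complex (ORC1 to ORC6), CDC6 and CDT1 load the ring-shaped MCM2 to MCM7 helicase at origins in G1 phase, while geminin (GMNN) blocks reloading later in the cycle. CDC45, the GINS complex and MCM10 then turn the ring into a running helicase. The loader RFC places PCNA, which holds the polymerases on DNA, and FEN1 with LIG1 seals the lagging strand. Many of these genes are textbook targets of the E2F transcription factors, which cyclin E and its kinase help to release from RB, and pluripotent stem cells are known for a short G1 phase. TCDD is a dioxin, and the transcription factor that senses it is the aryl hydrocarbon receptor (AHR).

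Library totals ran from 34873055 to 43770420 counts. Levels below are CPM, counts relative to the TMM-scaled library total as edgeR gives them, and differences are log2 fold changes from edgeR's quasi-likelihood fit with a Benjamini-Hochberg adjusted p over all genes tested. A gene was called changed at an adjusted p under 0.05. The labels were checked on other genes. CYP1A1, the classic AHR target, stood between 0.292 and 0.813 CPM in the 4 DMSO libraries, at 101 and 77.7 CPM with TCDD at D1 and at 2.56 and 1.82 CPM with TCDD at D2. T, the primitive streak factor brachyury, was at or under 0.127 CPM in all D1 libraries and reached 92.7 and 88.3 CPM at D2 with DMSO and 45.3 and 52.0 CPM at D2 with TCDD. POU5F1, which marks ESCs, was present in every library. Of the lists for other cell types, 4 of 5 endothelial and blood genes and 3 of 6 fibroblast genes stayed under 1 CPM in every library. So did 2 of 5 cardiac muscle, 2 of 5 neuroectoderm and 1 of 5 definitive endoderm genes. The fibroblast gene LUM had no count in any library. The fibroblast list as a whole was not absent, with a summed level of 834 to 929 CPM at D1.

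Because E2F factors are known regulators of such genes, the letters before their transcription starts were read from the RefSeq promoter table (GRCh38.p14, 250 bases before to 50 after each start). The table held 37 of the 44 genes. Some genes had more than 1 start and window, and a gene was counted if any of its windows held the motif. An E2F motif, any of TTTGGCGC, TTTCGCGC, TTTCCCGC or TTTGCCGC on either strand, occurred in 19 of these 37 genes (51.4%). Among the genes of the deposited tables with a promoter, this was 843 of 16943 (4.98%). The AHR core motif TNGCGTG, searched on both strands, occurred in 4 of 37 (10.8%; MCM3, ORC3, RFC2 and RRM2), against 7.97% of the deposited genes. These matches describe the letters only and are no evidence of binding. The 250 bases before the start are printed for 4 genes that carry the contrast in the results below. POLA1, the catalytic subunit of DNA polymerase alpha, and POLE, that of polymerase epsilon, each have 1 E2F match and were called higher at D2. MCM6, a helicase subunit, has 4 matches that overlap in pairs and was not called changed in any of the 5 comparisons. FEN1, the flap endonuclease of lagging-strand synthesis, has none in these bases or in its whole window and had the largest rise of the 44 with DMSO. All are written 5′ to 3′ along the gene's strand, with E2F matches in capitals. POLA1 lies on the plus strand at chrX:24693668-24693917, POLE on the minus strand at chr12:132687343-132687592, MCM6 on the minus strand at chr2:135876444-135876693 and FEN1 on the plus strand at chr11:61792661-61792910.
POLA1: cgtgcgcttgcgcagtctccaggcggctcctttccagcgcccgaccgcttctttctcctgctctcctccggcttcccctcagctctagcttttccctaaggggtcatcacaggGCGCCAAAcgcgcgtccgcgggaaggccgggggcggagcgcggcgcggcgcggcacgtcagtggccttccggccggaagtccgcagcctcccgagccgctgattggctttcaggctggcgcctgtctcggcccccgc
POLE: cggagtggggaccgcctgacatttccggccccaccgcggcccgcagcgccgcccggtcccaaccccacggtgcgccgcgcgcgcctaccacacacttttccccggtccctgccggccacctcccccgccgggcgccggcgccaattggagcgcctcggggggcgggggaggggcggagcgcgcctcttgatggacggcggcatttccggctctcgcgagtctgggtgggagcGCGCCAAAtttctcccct
MCM6: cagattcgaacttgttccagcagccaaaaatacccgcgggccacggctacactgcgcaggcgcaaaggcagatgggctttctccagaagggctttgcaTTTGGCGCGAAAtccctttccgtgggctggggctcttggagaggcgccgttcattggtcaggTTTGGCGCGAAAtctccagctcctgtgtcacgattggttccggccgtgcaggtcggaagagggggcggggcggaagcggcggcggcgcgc
FEN1: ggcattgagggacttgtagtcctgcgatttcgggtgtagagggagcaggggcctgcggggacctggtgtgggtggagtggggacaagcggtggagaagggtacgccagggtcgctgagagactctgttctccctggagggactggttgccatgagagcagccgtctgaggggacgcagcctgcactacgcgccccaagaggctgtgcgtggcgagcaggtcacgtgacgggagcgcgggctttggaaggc

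The study's own question, as its groups state it, is what TCDD did. At D1 none of the 44 replication genes was called changed by TCDD against DMSO, either by edgeR or by DESeq2, where edgeR called 1.2% of all genes tested (0.764% higher and 0.434% lower). Unadjusted p-values fell under 0.05 for 2 of the 44, GINS2 and POLA1, and for 1798 of the 17268 genes tested. The median log2 difference of the 44 was -0.01, against 0.00 for all genes, with 20 values above 0 and 24 below. The 95% intervals of all 44 differences lay within 0.5 of 0 on the log2 scale, and 42 lay within 0.25. The TCDD libraries lay wholly above the DMSO libraries for 5 genes and wholly below for 4, where this held for 18.9% and 18.6% of all genes.

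The D1 difference closest to the threshold was that of GINS2, a subunit of the GINS complex that activates the helicase. GINS2 stood at 49.2 and 46.7 CPM with DMSO and at 53.4 and 56.4 CPM with TCDD at D1. The TCDD libraries were the higher pair and did not overlap the DMSO pair, with a log2 difference of 0.19 ± 0.05 (SE) and an adjusted p of 0.094. GINS2 passed the threshold when only genes with no count were removed before the fit (adjusted p = 0.0489). It also passed with the replicate numbers as a block within each time (adjusted p = 0.0222). At D2 the GINS2 levels were 59.4 and 57.3 CPM with DMSO and 59.4 and 59.2 CPM with TCDD, and the groups overlapped. POLA1 had the lowest difference at D1, with 76.3 and 69.0 CPM with DMSO and 65.3 and 66.1 CPM with TCDD. That pair of TCDD libraries was the lower one, at a log2 difference of -0.15 and an adjusted p of 0.31.

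At D2 none of the 44 was called changed by TCDD either, again by edgeR and by DESeq2, where edgeR called 2.95% of all genes (1.41% higher and 1.54% lower). Unadjusted p-values fell under 0.05 for 3 of the 44 and for 2437 of the 17268 genes tested. The median log2 difference was 0.02, against 0.00 for all genes, and 27 values were above 0 and 17 below. All 44 intervals lay within 0.5 of 0 and 43 within 0.25. The TCDD libraries were wholly higher for 14 genes and wholly lower for 7, against 24.4% and 23.3% of all genes.

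CDT1, the licensing factor that brings the MCM ring to origins, had the largest D2 difference. Its levels were 141 and 137 CPM with DMSO and 154 and 156.5 CPM with TCDD, so the TCDD libraries were both above the DMSO libraries. The log2 difference was 0.16 ± 0.04 (SE), with an adjusted p of 0.0674. CDT1 passed the threshold with only the 4 libraries compared (adjusted p = 0.0341) and with the replicate block (adjusted p = 0.0142). It also passed the threshold when either of the TCDD D1 libraries, which are not part of the contrast but share its estimate of spread, was left out (adjusted p = 0.0350 without replicate 1 and 0.0347 without replicate 2). The lowest D2 difference was that of CCNE2, one of the cyclins E, at -0.12.

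The difference between the TCDD effects at D2 and at D1 was also tested directly. None of the 44 passed, by edgeR or DESeq2, where edgeR called 0.77% of all genes (0.492% higher and 0.278% lower). Unadjusted p-values were under 0.05 for 1810 of the 17268 genes and for 2 of the 44, POLA1 (0.20 on the log2 scale, adjusted p = 0.307) and GINS2 (-0.17).

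**Figure D1:**
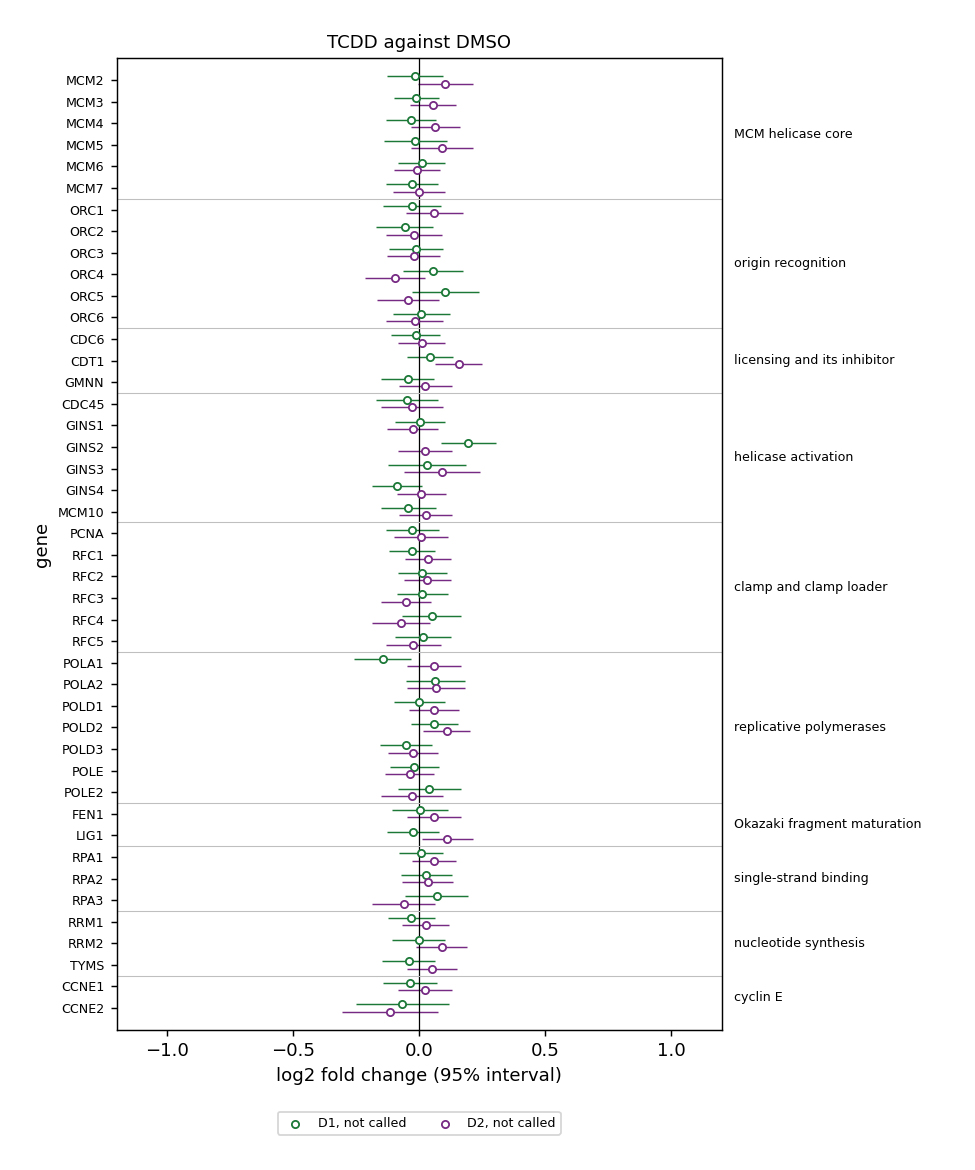
TCDD against DMSO for each of the 44 genes at D1 and at D2, as log2 fold change (x axis) with 95% intervals from the edgeR fit, genes on the y axis by role. No gene was called at either time, and the estimates run from -0.15 to 0.19 at D1 and from -0.12 to 0.16 at D2.

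The step from ESCs to differentiation day 2 moved most of these genes. With DMSO, 32 of the 44 were called higher at D2 than at D1 and 1 was called lower, where 63.2% of all genes were called, 32.5% higher and 30.7% lower. The median log2 change of the 44 was 0.21, against 0.01 for all genes. The D2 libraries were wholly higher for 36 genes and wholly lower for 4, where 42% and 40.4% of all genes behaved so. The largest called rises were those of FEN1, POLA1, ORC5, MCM4, RRM2 and TYMS, and the first 4 of these were at least 1.5-fold. The summed share of the 44 genes in the counts was 0.581% and 0.569% at D1 and 0.647% and 0.650% at D2. In bulk RNA, a change in how many cells transcribe a gene and a change in its RNA per cell cannot be told apart. D1 and D2 also differ in time, medium and inhibitor together, and those cannot be told apart. The marker lists moved over the same step. The summed level of 10 primitive streak and mesoderm genes was 9.18 to 10.7 CPM in the D1 libraries. At D2 it was 848 and 826 CPM with DMSO and 508 and 584 CPM with TCDD. Of these 10, 9 were called higher and 0 lower with DMSO. With TCDD, 9 were called higher and 1 lower (33.1% and 32.2% of all genes). TCDD against DMSO at D2 called 1 of them higher and 6 lower (1.41% and 1.54% of all genes). The summed level of 10 pluripotency genes was 7512 to 7848 CPM at D1 and 5391 to 5947 CPM at D2. Its members did not move together: with DMSO 1 was called higher and 5 lower, and with TCDD 6 higher and 3 lower, with PODXL the largest fall in both (-1.60 and -1.28). The fibroblast sum was 834 to 929 CPM at D1 and 297 to 355 CPM at D2, the neuroectoderm sum 551 to 670 CPM and then 363 to 397 CPM, and the definitive endoderm sum 0.661 to 1.07 CPM and then 13.3 to 19.96 CPM. The falling sums hid members that rose. With DMSO, 1 of 3 tested fibroblast genes was called higher and 2 lower, and 1 of 4 tested neuroectoderm genes higher and 2 lower. With TCDD, the fibroblast counts were the same, and 1 neuroectoderm gene was called higher and 1 lower. The part of the marker genes in the changes of the replication genes was not tested. Without composition scaling, the median over all genes moved to -0.08 and that of the 44 to 0.12, with 23 called higher and 3 lower, GINS1, RFC1 and CCNE2 (25.4% and 37.2% of all genes). Leaving out that scaling shifts all genes by about the same amount.

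**Figure D2:**
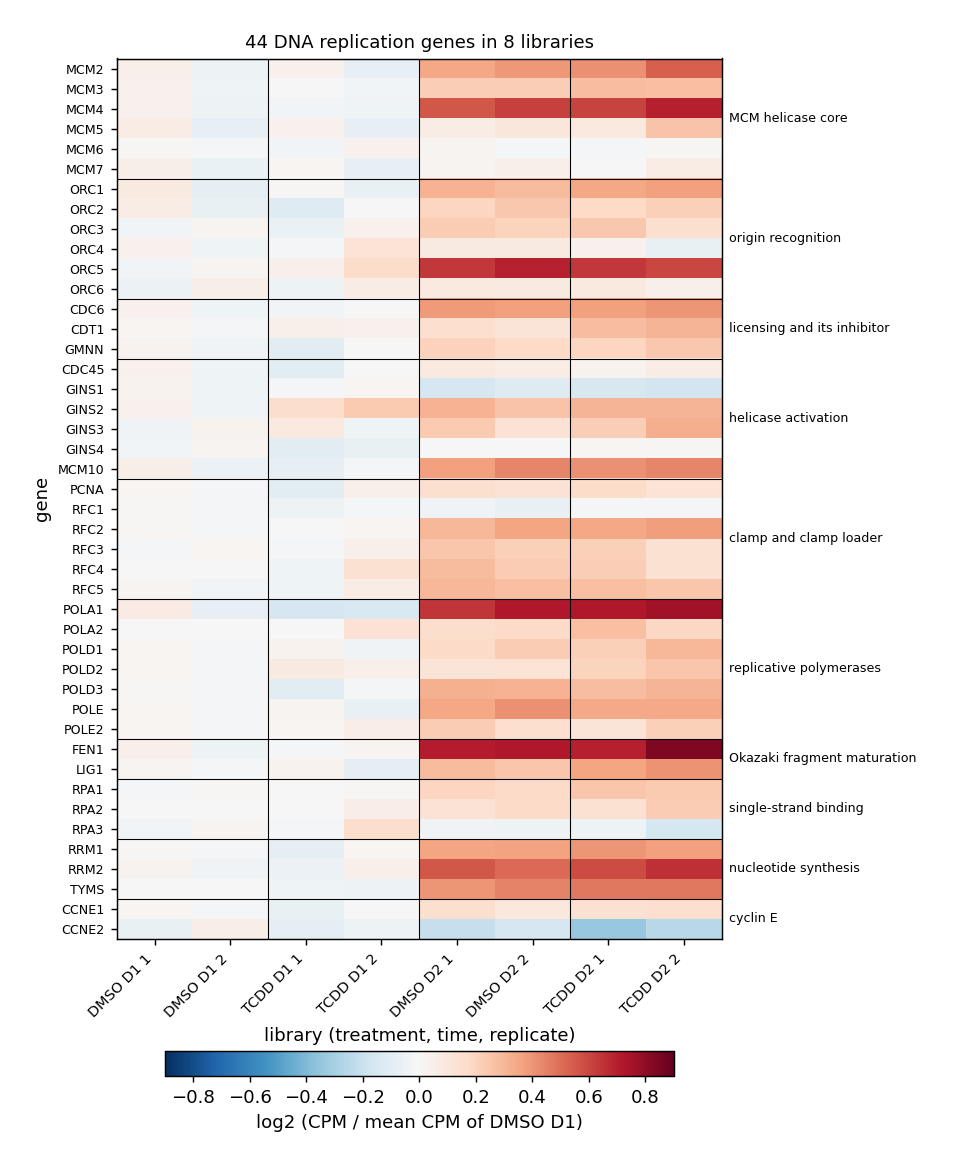
Level of each of the 44 genes (rows, grouped by role) in each of the 8 libraries (columns), coloured by the log2 ratio to the gene's mean CPM in DMSO D1. The 4 D2 libraries are higher than the 4 D1 libraries for most rows, and GINS1, RPA3 and CCNE2 run the other way.

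Of the helicase subunits, 3 of 6 were called higher with DMSO. MCM2 stood at 263 and 247 CPM at D1 and 325 and 335 CPM at D2, a log2 change of 0.37 (adjusted p = 7.51e-06). MCM4 stood at 554 and 522 CPM at D1 and 792 and 824 CPM at D2, a change of 0.59 (adjusted p = 5.37e-09). For both genes each D2 library was above each D1 library. MCM3 was called higher at 0.22. MCM5 was at 243 and 220 CPM at D1 and 243 and 249 CPM at D2, overlapping groups with a difference of 0.09 (adjusted p = 0.217). MCM7 differed by 0.03 and was not called. MCM6 was nearly level, at 239 and 236 CPM at D1 and 242 and 236.5 CPM at D2, with a 95% interval from -0.08 to 0.10. The intervals of MCM4 (0.49 to 0.69) and MCM6 do not overlap, although both encode parts of the same ring. These were the largest and smallest of the 6 estimates, and the difference between them was not tested.

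The origin recognition complex had 4 of 6 members called higher. ORC1, the largest subunit, stood at 73.1 and 65.0 CPM at D1 and 85.8 and 84.1 CPM at D2, a change of 0.30. ORC5 stood at 24.3 and 25.2 CPM at D1 and 38.4 and 40.1 CPM at D2, a change of 0.67 (adjusted p = 2.77e-08). ORC1 and ORC5 were both wholly higher at D2, and ORC2 and ORC3 were each called higher at 0.22. ORC6 was at 56.6 and 61.0 CPM at D1 and 62.6 and 62.1 CPM at D2 and was not called (0.08, adjusted p = 0.18), and ORC4 was not called either (0.08).

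All 3 licensing genes were called higher. CDC6, the loader ATPase, stood at 119 and 113 CPM at D1 and 151 and 149.8 CPM at D2, a change of 0.37 (adjusted p = 9.98e-07). CDT1, whose D2 values are given above, was at 129 and 125 CPM at D1 and rose by 0.13. GMNN, the inhibitor of CDT1, stood at 77.9 and 74.5 CPM at D1 and 88.1 and 86.2 CPM at D2, a change of 0.19. CDC6, CDT1 and GMNN therefore each had higher libraries at D2, with CDC6 changing the most.

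The helicase activators split. MCM10 was called higher, from 64.9 and 60.5 CPM at D1 to 80.8 and 84.8 CPM at D2 (0.40, adjusted p = 1.92e-06). GINS2 was called higher by 0.28 and GINS3 by 0.18. GINS1, from the same complex, was the only one of the 44 called lower, at 82.5 and 78.5 CPM at D1 and 72.5 and 74.4 CPM at D2 (-0.13, adjusted p = 0.0216). CDC45, the helicase cofactor, was at 35.7 and 33.8 CPM at D1 and 36.9 and 36.3 CPM at D2 and was not called (0.08, adjusted p = 0.267), and GINS4 was not called (0.00).

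The clamp and its loader had 5 of 6 members called higher. PCNA, the sliding clamp, stood at 129.9 and 127 CPM at D1 and 141.5 and 140.5 CPM at D2, a change of 0.14. RFC1, the large loader subunit, was at 168.5 and 166.5 CPM at D1 and 164 and 160.2 CPM at D2 and was not called (-0.05, adjusted p = 0.345). The smaller subunits RFC2 to RFC5 were called higher by 0.23 to 0.33. RFC1 was thus the one loader subunit with lower libraries at D2, by a difference that did not pass the test.

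All 7 replicative polymerase genes were called higher, by 0.12 to 0.68. POLA1, with D1 values given above, reached 113 and 119.8 CPM at D2, a change of 0.68 (adjusted p = 2.91e-09). POLE stood at 178.5 and 175 CPM at D1 and 224 and 235 CPM at D2, a change of 0.38 (adjusted p = 1.24e-06). POLA1 and POLE had every D2 library above every D1 library, and the smallest rise of the group was that of POLD2.

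Both genes of Okazaki fragment maturation were called higher. FEN1 stood at 92.4 and 86.9 CPM at D1 and 146 and 148 CPM at D2, a change of 0.71 (adjusted p = 1.43e-09). LIG1, the ligase that seals the nicks, stood at 123 and 119.8 CPM at D1 and 148 and 145 CPM at D2, a change of 0.27. FEN1 rose the most of the 44 by estimate, and its printed upstream bases hold no E2F match.

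Of the single-strand binding genes, RPA1 and RPA2 were called higher by 0.18 and 0.15. RPA3, the smallest subunit of the same trimer, was at 57.0 and 59.2 CPM at D1 and 56.9 and 56.4 CPM at D2 and was not called (-0.04, adjusted p = 0.601). All 3 nucleotide synthesis genes were called higher. RRM2, the cell-cycle-regulated subunit of ribonucleotide reductase, stood at 130.5 and 124.5 CPM at D1 and 188 and 181 CPM at D2, a change of 0.53 (adjusted p = 3.18e-08). TYMS, which makes thymidylate, stood at 46.8 and 46.7 CPM at D1 and 61.6 and 63.8 CPM at D2, a change of 0.42, and RRM1 was called higher by 0.36. The D2 libraries of RRM2 and TYMS were all above those of D1. Neither cyclin E was called: CCNE1 was at 45.4 and 44.4 CPM at D1 and 49.5 and 48.0 CPM at D2 (0.12, adjusted p = 0.0514), and CCNE2 at 10.1 and 11.1 CPM at D1 and 9.20 and 9.54 CPM at D2 (-0.18, adjusted p = 0.0857).

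**Figure D3:**
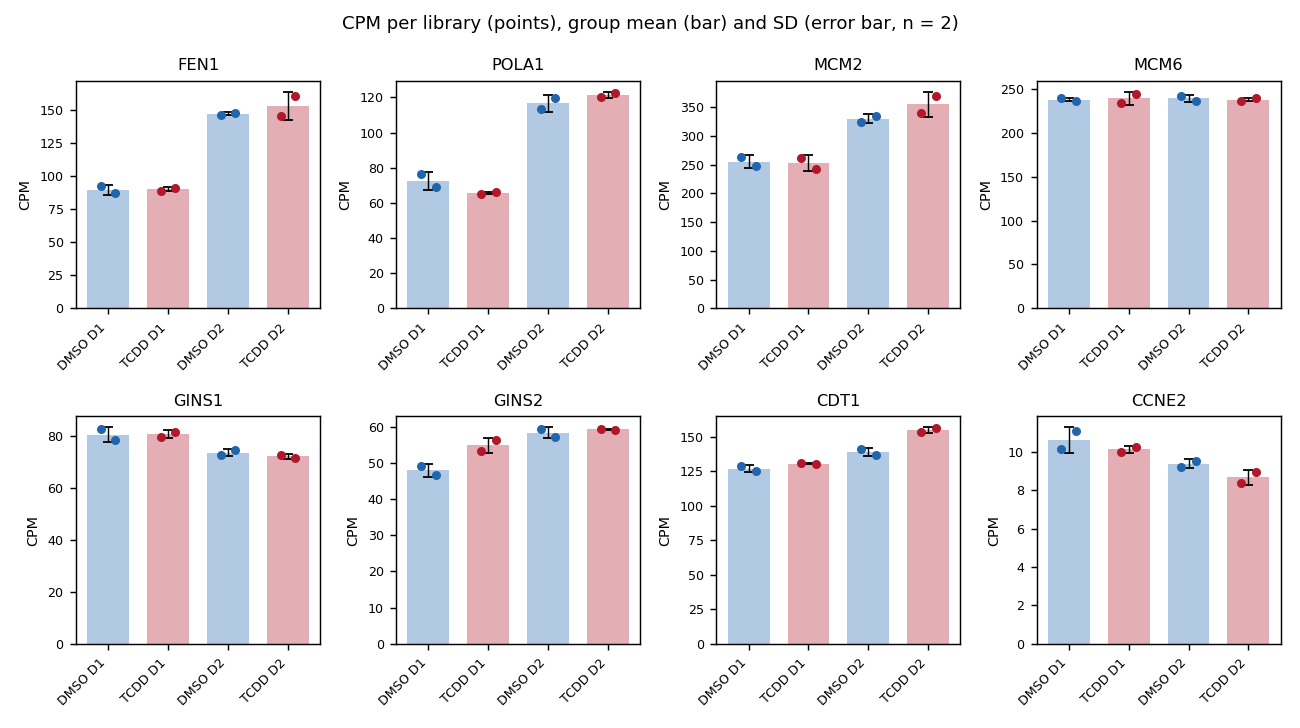
CPM of example replication genes in each library by group, with 1 point per library, bars at the group means and error bars of 1 SD (n = 2). FEN1 and POLA1 are higher at D2 with either treatment, MCM6 is level, and GINS1 is lower at D2.

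After TCDD the course from D1 to D2 was measured in 4 other libraries. Here 32 of the 44 were called higher and 3 lower, where 65.3% of all genes were called, 33.1% higher and 32.2% lower, with a median of 0.24 against 0.00 for all genes. FEN1 stood at 88.8 and 91.0 CPM at D1 and 146 and 160.5 CPM at D2 (0.77), and POLA1 reached 120.0 and 123 CPM (0.88, adjusted p = 9.31e-11). MCM4 rose by 0.69, RRM2 by 0.63 and ORC5 by 0.52. GINS1 was called lower again (79.6 and 81.6 against 72.7 and 71.5 CPM, -0.16), as were RPA3 (57.3 and 64.8 against 56.3 and 52.1 CPM, -0.17) and CCNE2 (10.01 and 10.3 against 8.38 and 8.94 CPM, -0.23). The libraries of the other genes described above follow. MCM2 stood at 262 and 243 CPM at D1 and 339 and 370 CPM at D2 with TCDD, and MCM4 at 528 and 523 CPM and then 818 and 872 CPM. MCM5, not called with DMSO, stood at 238 and 220 CPM at D1 and 246 and 277 CPM at D2 and was called higher (0.19, adjusted p = 0.00838). MCM6 was again level, at 234 and 244 CPM at D1 and 236.5 and 239 CPM at D2. MCM2, MCM4 and MCM5 had wholly higher D2 libraries, and MCM6 did not. ORC1 stood at 69.4 and 65.9 CPM at D1 and 87.8 and 89.4 CPM at D2, and ORC5 at 25.6 and 27.7 CPM and then 38.5 and 37.6 CPM. ORC6 was at 56.9 and 61.5 CPM at D1 and 62.4 and 60.8 CPM at D2, overlapping groups. CDC6 stood at 114 and 116 CPM at D1 and 149.8 and 153 CPM at D2, GMNN at 71.3 and 76.4 CPM and then 87.0 and 90.3 CPM, and CDT1 at 131 and 130.3 CPM at D1. All 3 licensing genes were called higher. MCM10 stood at 59.4 and 62.2 CPM at D1 and 83.5 and 85.2 CPM at D2, and CDC45, not called, at 32.3 and 34.9 CPM and then 35.5 and 36.4 CPM. PCNA stood at 119 and 133 CPM at D1 and 144 and 139.5 CPM at D2, and RFC1 at 162 and 166.5 CPM and then 166.0 and 165.9 CPM. The clamp was called higher and RFC1 was not. POLE stood at 179.8 and 168.5 CPM at D1 and 224 and 223 CPM at D2, and LIG1 at 124 and 114.5 CPM and then 155 and 160.6 CPM. RRM2 stood at 123 and 131 CPM at D1 and 191 and 201 CPM at D2, and TYMS at 45.5 and 45.3 CPM and then 64.9 and 64.9 CPM. These 4 genes were all called higher. CCNE1 stood at 42.8 and 44.8 CPM at D1 and 49.3 and 49.8 CPM at D2 and was called higher (0.18, adjusted p = 0.00507). Without composition scaling, the TCDD course gave 22 higher and 5 lower, with MCM6 and ORC4 joining the latter (24.2% and 40.5% of all genes) and a median of 0.13 against -0.11.

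Of the genes called higher, 30 were called in both courses. GINS2 and POLE2 were called with DMSO alone, and MCM5 and CCNE1 with TCDD alone. MCM6, MCM7, ORC4, ORC6, CDC45, GINS4 and RFC1 were called in neither. The sign was the same in both courses for 41 of 44. The direct test of the difference called none of these genes, so a dependence of the course on TCDD was not shown for any of them.

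**Figure D4:**
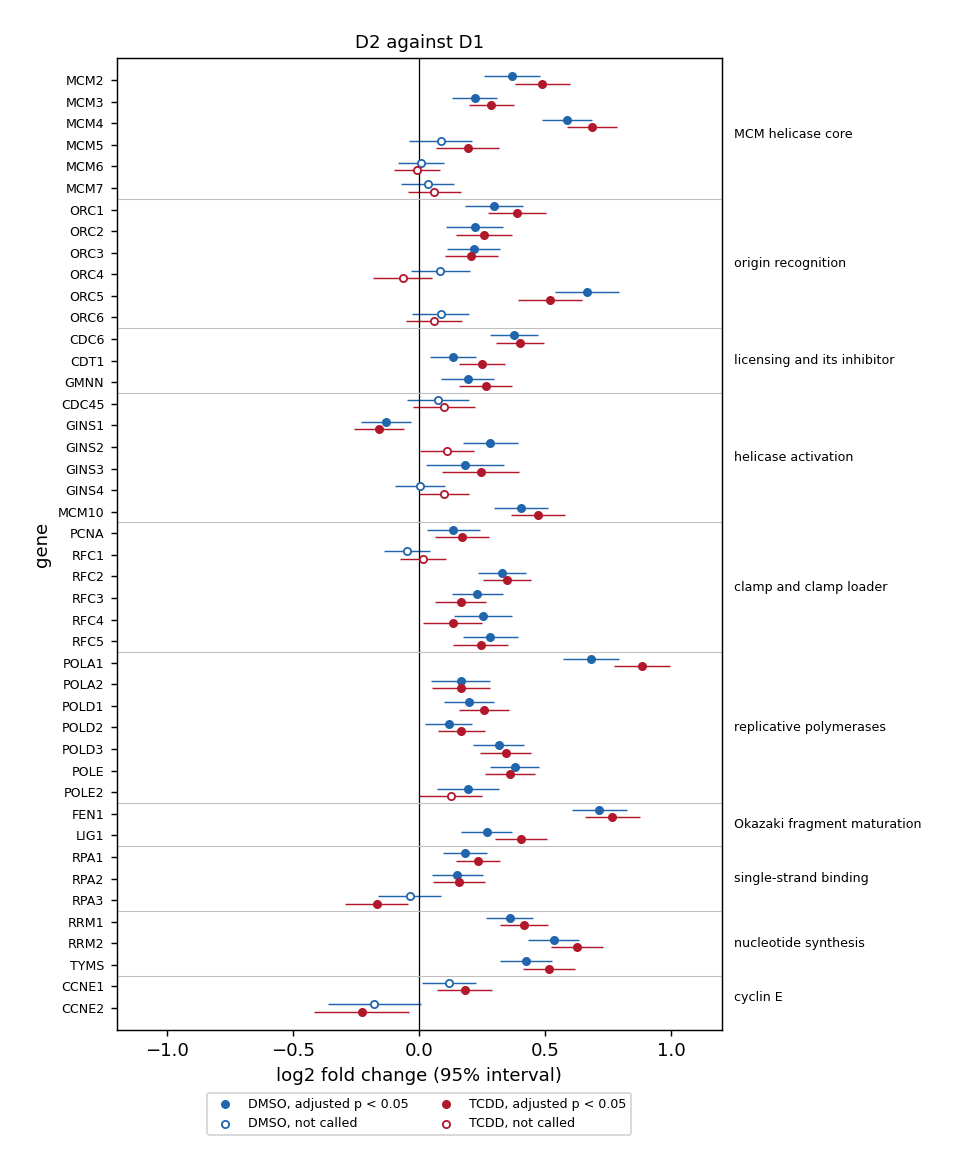
Log2 change from D1 to D2 for each of the 44 genes with DMSO and with TCDD, with 95% intervals, genes on the y axis by role. Filled points are called and open points are not. Most intervals lie above 0 in both, FEN1, POLA1, ORC5 and MCM4 lie furthest right with DMSO, and GINS1 lies below 0 in both.

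Several of the smaller calls changed when 1 library was left out. Such a fit leaves 1 library in that group, so it cannot tell a call that rests on that library from a loss of precision. With DMSO, leaving out 1 library ended the call of CDT1 (DMSO D1 replicate 2 or D2 replicate 1, adjusted p = 0.0925 to 0.107), GINS1 (D1 replicate 1 or either D2 library, 0.0609 to 0.188) and PCNA (D1 replicate 2 or either D2 library, 0.0868 to 0.130). The same held for GINS3 (either D1 library or D2 replicate 1, 0.0526 to 0.243), POLA2 (either D1 library or D2 replicate 2, 0.0534 to 0.0756), POLD2 (D1 replicate 2 or either D2 library, 0.0918 to 0.137) and POLE2 (D1 replicate 2 or D2 replicate 1, 0.0552 to 0.0864). RPA2 lost its call without DMSO D2 replicate 2 (0.102), and CCNE1 gained one without either TCDD D1 library (0.0367). In the TCDD course, RPA3 lost its call without TCDD D1 or D2 replicate 2 (0.167 to 0.290), as did MCM5 (0.0732 to 0.206) and GINS3 (0.0609 to 0.0830). PCNA lost it without TCDD D1 or D2 replicate 1 (0.0540 to 0.0934), as did POLA2 (0.127 to 0.145). CCNE2 lost it without either TCDD D1 library or D2 replicate 1 (0.0656 to 0.187), RFC3 without TCDD D2 replicate 1 (0.0679) and RPA2 without TCDD D2 replicate 2 (0.138). RFC4 lost it without TCDD D1 or D2 replicate 1 or either DMSO D2 library (0.0530 to 0.437). GINS2 gained a call without TCDD D1 replicate 2 (0.0300) and POLE2 without TCDD D2 replicate 1 (0.0445). Under every alternative run, 23 of the 33 called genes kept their call with DMSO and 23 of the 35 with TCDD.

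Some exons overlap those of other genes in the GENCODE 29 annotation, and since the strand setting of the counting is not stated, reads there cannot be assigned with certainty. CCNE2 shares 1629 bases with INTS8, TYMS shares 967 with ENOSF1, ORC4 shares 430 with ACVR2A, MCM7 shares 277 with AP4M1, FEN1 shares 166 with TMEM258 and RPA3 shares 70 with UMAD1. Further overlaps were TYMS with TYMSOS (106), ORC4 with MBD5 (99), FEN1 with FADS2 (49), MCM2 with TPRA1 (45), RFC4 with EIF4A2 (21) and GINS2 with GSE1 (7). FEN1 and FADS2 lie on the same strand, so a strand setting would not separate their reads. ENOSF1 itself rose by 0.99 from D1 to D2 with DMSO, INTS8 by 0.31, TMEM258 by 0.27, AP4M1 by 0.47 and UMAD1 by 0.42, and ACVR2A was not called (-0.01). The part of these neighbours in the values of the replication genes was not tested.

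E2F matches were found among called and uncalled genes. Among the 37 with a promoter, an E2F motif was found in 16 of 29 called higher with DMSO, in the 1 called lower (GINS1) and in 2 of 7 not called (MCM6 and MCM7). The CCAAT motif (CCAAT, both strands) was found in 22 of 37 genes (59.5%), against 41.5% of the deposited genes. CHR (TTTGAA, both strands), a motif of late cell-cycle genes, was found in 1 gene, RRM1 (2.7%, against 16.2%).

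Other genes of the same machinery were counted from lists. The shares over all genes for D2 against D1 with DMSO were 32.5% higher and 30.7% lower, as above. Of 24 further replication factors, 15 were called higher and 2 lower from D1 to D2 with DMSO, with a median of 0.22. TIPIN, of the fork protection complex, rose by 0.74, the helicase RECQL4 by 0.73, the checkpoint scaffold TOPBP1 by 0.50 and the primase subunit PRIM2 by 0.47. Of 15 genes of nucleotide supply, 10 rose and 2 fell, among them CTPS1, IMPDH2 and CAD higher and SAMHD1, which breaks down deoxynucleotides, lower at -1.39. Of 10 genes that rebuild chromatin and methylation behind the fork, 6 rose and 1 fell. Of 22 genes of E2F, RB and G1/S control, 15 rose and 4 fell, with CDK4 at 0.84, RB1 at 0.79, the ubiquitin ligase subunit SKP2 at 0.75 and CCND3 at -1.22. TCDD against DMSO called 1 of these 4 lists' genes at D1 (1.2% of all genes were called), SAMHD1 (-0.25, adjusted p = 0.0136), and 1 at D2 (2.95% of all genes), CDK6 (0.20, adjusted p = 0.0358). The SAMHD1 call was lost without DMSO D1 replicate 1 or TCDD D1 replicate 2 (0.0651 to 0.346) and with only the 4 libraries compared (0.0602), and that of CDK6 without any D2 library (0.131 to 0.376) and without composition scaling.

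Across the 8 libraries, the genes outside the 44 with the pattern most like their mean were TAX1BP1, MESDC2, BCCIP, SPDL1 and NOL10, with Pearson correlations of 0.997 to 0.999 over log2 CPM among 10332 genes of at least 10 CPM. The 8 points fall into a D1 and a D2 cluster, so this describes little beyond the step between them. Within the 44, the correlation with the mean of the others ran from 0.99 for RRM2 down to -0.91 for GINS1.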

How the data were processed

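Total RNA of 8 MEL1 libraries was sequenced. The deposited files hold the authors' raw read counts per gene symbol, whole numbers with no normalisation. Reads were trimmed with cutadapt 1.9.1, aligned with STAR to hg19 and counted with featureCounts 1.5.1, per the submitters' processing notes. Neither the annotation nor the strand setting is given in the sources used here.

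Groups were taken from the sample titles. Genes kept by edgeR's filterByExpr (17268) were fitted with edgeR 4.0.16, which uses limma 3.58.1, under R 4.3.3, with TMM scaling (factors 0.958 to 1.04), a mean for each of the 4 groups and a two-sided quasi-likelihood F test for 5 comparisons, Benjamini-Hochberg adjusted over all genes tested. The common biological coefficient of variation was 3.86%. Errors are standard errors or 95% intervals from the moderated dispersion. A chi-square statistic of replicate counts was 3.21 to 6.59 per gene, above sampling noise, so all libraries were kept as separate samples. Alternatives were DESeq2 1.42.0, other scaling and filters, only the 4 libraries compared, a replicate block and leaving out each library. No library was left out of the main analysis. The 44 members and the other lists were chosen with earlier results of these data known. Values per library were given for any member called in TCDD against DMSO (there was none), for the 6 largest called rises and falls from D1 to D2 with DMSO, and for a further list (MCM2, MCM5, MCM10, CDC45, GINS2, ORC1, ORC6, CDC6, CDT1, GMNN, PCNA, RFC1, POLA1, POLE, FEN1, LIG1, RPA3, RRM2, TYMS, CCNE1 and CCNE2). Of the other lists, up to 4 called genes with the smallest p were named. MCM6 and the 4 printed promoters were chosen after values were seen. Precision is limited by counting error and by 2 libraries per group.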

Additional observations from a re-analysis of the deposited data

Results flagged for a closer look

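For SAMHD1, a hydrolase of deoxynucleotides, the TCDD effect differed between the times: 0.43 on the log2 scale at D2 minus D1 (adjusted p = 0.011 by edgeR). The TCDD effect was -0.25 at D1 and 0.17 at D2. The D2 effect was not called (adjusted p = 0.132 by edgeR), so a reversal of sign was not shown. The call of the difference was lost without DMSO D1 replicate 1, DMSO D2 replicate 2, or either TCDD D2 library.

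For CDK6, a kinase of the G1 phase, the same difference was 0.34 (adjusted p = 0.0261 by edgeR), with TCDD effects of -0.15 at D1 and 0.20 at D2. The D1 effect was not called (adjusted p = 0.233 by edgeR), so a reversal of sign was not shown here either. The call of the difference was lost without DMSO D1 replicate 2, either DMSO D2 library or either TCDD D2 library. Both genes were outside the 44, and this difference was called for 0.77% of all genes.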

How the results depend on the processing

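No result of the 44 genes that was called in the main fit or in the alternative reversed its sign. Over 3080 recomputed results, 2997 stayed on their side of the threshold, 67 lost their call and 16 gained one. Uncalled results that changed sign are among the 2997, such as MCM2 for TCDD at D1 (-0.07 to 0.04). For TCDD at D1, 1 gene (GINS2) was called higher when only genes with no count were removed and with the replicate block; at D2, 1 (CDT1) with only the 4 libraries compared and with the replicate block, and 0 to 1 when a library was left out. Without composition scaling, the D2 against D1 counts of genes called lower were 3 with DMSO and 5 with TCDD, with medians of 0.12 and 0.13; leaving out a library gave 0 to 1 and 1 to 3 called lower, and 26 to 33 and 29 to 32 called higher. Over all genes, TCDD at D1 called 132 higher and 75 lower, against 245 and 260 without the filter on low counts and 277 and 318 with the replicate block; at D2 it called 243 and 266, against 430 and 478 without the filter, 584 and 550 with the block and 157 lower by DESeq2. With only the 4 libraries compared, D1 gave 83 and 31. The difference of TCDD effects called 85 higher and 48 lower, against 274 and 194 without the filter and 361 and 212 with the block. Leaving out a library gave 70 to 152 higher and 10 to 172 lower at D1, 96 to 319 and 102 to 329 at D2, and 15 to 203 and 14 to 72 for the difference. DESeq2 called 28 of the 44 higher with DMSO from D1 to D2 and 31 with TCDD.

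Same-numbered libraries deviated together between treatments (correlation 0.308 at D1 and 0.21 at D2). With TCDD between times the correlation was -0.29, which does not bear on the block, since it pairs numbers only within a time. Each comparison has only 2 pairs. The main fit treated the replicate numbers as names, and the block was run as an alternative. With the block, 33 genes were called higher in each course, and with numbers crossed for TCDD, 32 higher and 3 lower.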

Other observations

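Genes of the cell cycle outside DNA copying were counted from D1 to D2 with DMSO, where 32.5% of all genes were called higher and 30.7% lower. Of 20 mitotic genes, 4 were called higher and 8 lower, with a median of -0.01. CENPE, a kinetochore motor, rose by 0.82 and BUB1 by 0.39, while BUB1B (-0.46) and TOP2A (-0.34) were called lower. Of 14 tested inhibitors of cyclin-dependent kinases and p53 targets, 5 were called higher and 3 lower. Their median was -0.01, with 7 values above 0 and 7 below. The changes ran from -1.16 (CDKN1C) to 0.55, and CDKN1A was at -0.45. TCDD against DMSO called none of either list at D1 or D2 by edgeR. Unadjusted p-values were under 0.05 for 2 genes of each list at D1 and 1 of each at D2, against 1798 and 2437 of the 17268 genes tested.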
